A study of Mus musculus with 8 samples.

Results

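Integrins are cell surface receptors made of an alpha chain and a beta chain, and the integrin genes were compared between muscle pericytes and SMCs. All genes whose symbol begins with Itga or Itgb were taken, which gave 32 of the 37979 genes listed. Of these, 27 encode integrin chains (18 alpha and 9 beta chains), and the other 5 (Itgb1bp1, Itgb1bp2, Itgb1bp3, Itgb3bp and Itgbl1) encode proteins that are named after integrins but are not chains. The chains were split into 8 chains known from leukocytes (the leukocyte chains Itgal, Itgam, Itgax, Itgad, Itgae, Itgb2, Itgb7 and Itga4) and 18 other chains with a matrix ligand (the matrix-binding chains). Itga4 was kept with the leukocyte chains although it also binds fibronectin, a matrix protein. Itgb2l, a relative of Itgb2, was in neither list.

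Cells came from the hindlimb of Ai14+/-;SM22α-Cre+ mice of both sexes, aged 3 to 4 months. Every sample in both groups carried the same alleles, the tdTomato reporter Ai14 and a Cre transgene under the SM22α promoter, a promoter active in smooth muscle, so that cells that ever used the promoter stay red. Live cells that lacked the FITC signal of the CD31 and CD45 antibodies and bound the PDGFRβ antibody were sorted as pericytes (tdTomato-) or SMCs (tdTomato+), with several sorts pooled per sample. Bulk RNAseq of 4 pericyte and 4 SMC libraries gave FPKM for each gene, a fragment number scaled to transcript length and to the mapped reads of the library. The pericyte group was thus set by surface PDGFRβ and by the absence of the reporter, and animals were not given for each library, so the p-values measure the spread between these samples.

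The labels were checked against marker genes. None of 10 pericyte markers was higher in pericytes (0 by limma, and 0 at an unadjusted p below 0.05). Rgs5 and Ndufa4l2 were higher in SMCs (limma q = 0.024 and 0.00815), and 6 of 10 were so at an unadjusted p below 0.05. The 2 that passed were 20% of the list, beside 11.2% of all genes tested. All 8 smooth muscle markers had a higher mean log2 level in SMCs, but the groups overlapped for each, and 0 of 8 passed by limma (3 of 8 at an unadjusted p below 0.05). Library FPKM summed to between 690247 and 1190440 in pericytes and between 656405 and 737839 in SMCs, and between 12713 and 13194 genes reached 1 FPKM in a library. Of 9 genes that every cell uses, all 9 had a higher mean log2 level in pericytes. Of these, 2 passed (Eef2 and B2m, limma q = 0.00367 and 0.0282), which was 22.2%, beside 10.6% of all genes tested. Low FPKM values, taken to be whole multiples of what a fragment is worth, gave estimated relative depths that differed by at most 1.22 times. Log2 fold changes below are those of log2(FPKM + 1), pericytes over SMCs, a scale that understates the change of low genes, and a gene was called higher at a limma q value below 0.05.

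Integrins hold cells to their surroundings and pass signals both ways across the membrane. The beta 2 integrins, in which Itgb2 pairs with Itgal, Itgam, Itgax or Itgad, occur on leukocytes and bind cell surface ligands such as the ICAMs. Itgb7 pairs with Itga4 or Itgae and guides lymphocytes to mucosal tissue, and Itga4 also pairs with Itgb1 to bind VCAM-1 and fibronectin. Itgb1 pairs with many alpha chains, and these pairs bind collagens, laminins and fibronectin. Mural cells use such matrix receptors to attach to the vascular basement membrane.

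The leukocyte and matrix-binding chains differed in opposite directions. Of the 8 leukocyte chains, 6 were higher in pericytes (Itgb7, Itgal, Itgb2, Itgae, Itga4 and Itgax) and none was higher in SMCs, whereas among all genes tested 10.6% were pericyte-higher and 11.2% SMC-higher. Of the 18 matrix-binding chains, 8 were higher in SMCs (Itga11, Itga2b, Itga8, Itga1, Itgb1, Itgb5, Itga9 and Itga10) and none was higher in pericytes. In these opposite directions, 0 leukocyte chains and 0 matrix-binding chains had an unadjusted limma p below 0.05. The median log2 fold change was 2.63 over the 8 leukocyte chains and -1.11 over the 18 matrix-binding chains, beside 0.02 over all genes. Rescaled as TPM, the genes called overall shifted from 2917 higher in pericytes and 3060 in SMCs to 2117 and 3734, while the counts for the leukocyte chains and for the matrix-binding chains stayed within 1.5 times of those given here.

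**Figure D1:**
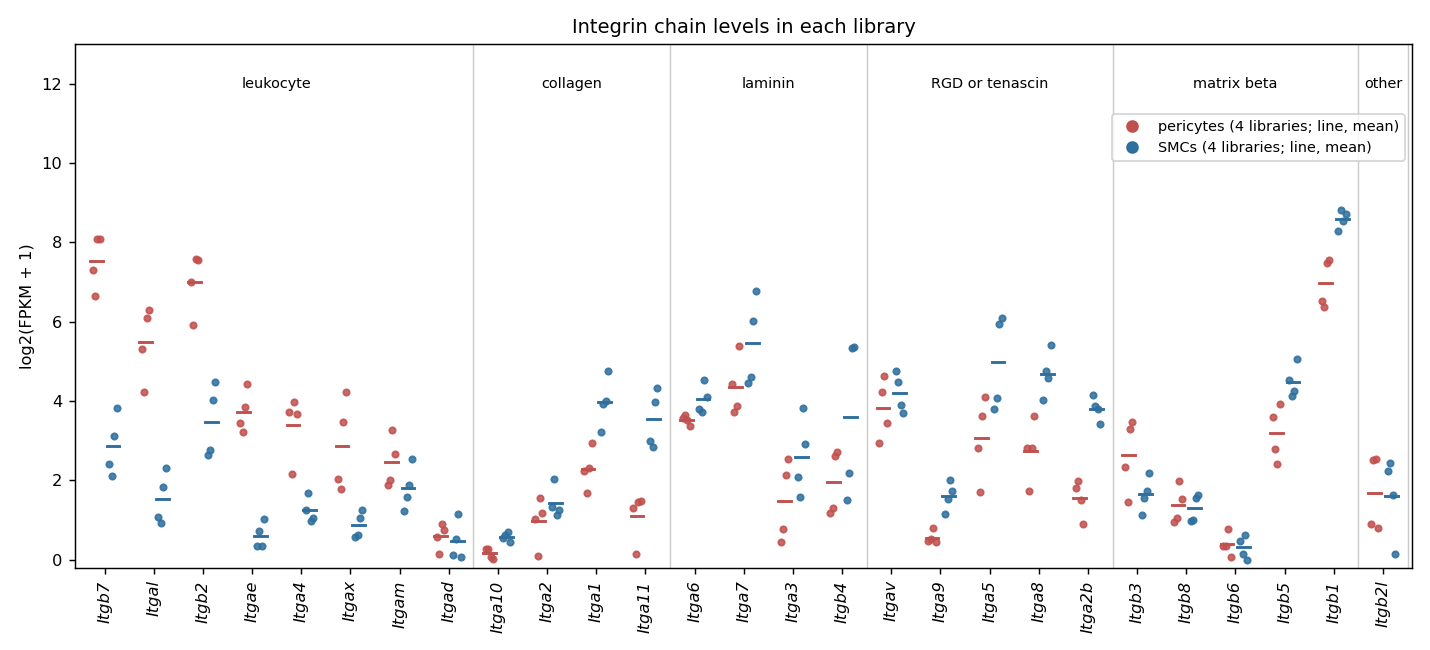
Level of each of the 27 integrin chains as log2(FPKM + 1) (vertical axis), with 4 points per group (pericytes red, SMCs blue) and a line at the group mean, and chains ordered within their list by fold change. The red points lie above all blue points for 6 of the 8 leukocyte chains on the left, and the blue points lie above all red points for 9 of the 18 matrix-binding chains.

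No SMC value reached the lowest pericyte value for these 6 leukocyte chains, and the same was true of 12.1% of all genes tested. In the opposite direction, no pericyte value reached the lowest SMC value for 9 of the 18 matrix-binding chains, beside 12.5% of all genes. Summed over the 8 leukocyte chains, the libraries held 193 to 593 FPKM in pericytes and 14.2 to 47.0 FPKM in SMCs. Summed over the matrix-binding chains, they held 146 to 323 FPKM in pericytes and 462 to 807 FPKM in SMCs. In bulk samples, more cells of a type and more RNA per cell cannot be told apart.

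Promoter windows were read for the chains that differed, to show the DNA from which these transcripts start. RefSeq (assembly GRCm38.p6) gave windows of 300 bases, 250 before the start site and 50 after it, for 22 of the 32 genes. The 10 genes without a window were Itga6, Itga7, Itgad, Itgae, Itgal, Itgb1bp2, Itgb1bp3, Itgb2, Itgb3 and Itgb4. Each window printed here matched NCBI Build 37, the build of the deposited values, exactly and at 1 place, and the coordinates are of that build. The windows shown are those of the 3 leukocyte chains with a window that were higher in pericytes, and of the 2 matrix-binding chains with a log2 fold change beyond -2. Capitals mark matches, on either strand, to GAGGAA (the core bound by PU.1, a factor of myeloid and B cells), TGTGGT (the RUNX core), AGATAA (bound by factors of mast and erythroid cells), TGANTCA (the AP-1 motif) or the CArG box (bound by SRF, a factor of smooth muscle genes). The Itgb7 window lies at chr15:102062317-102062616 on the minus strand, that of Itga4 at chr2:79095333-79095632 on the plus strand and that of Itgax at chr7:135272814-135273113 on the plus strand. The Itga11 window lies at chr9:62525412-62525711 on the plus strand and that of Itga2b at chr11:102331148-102331447 on the minus strand.
Itgb7: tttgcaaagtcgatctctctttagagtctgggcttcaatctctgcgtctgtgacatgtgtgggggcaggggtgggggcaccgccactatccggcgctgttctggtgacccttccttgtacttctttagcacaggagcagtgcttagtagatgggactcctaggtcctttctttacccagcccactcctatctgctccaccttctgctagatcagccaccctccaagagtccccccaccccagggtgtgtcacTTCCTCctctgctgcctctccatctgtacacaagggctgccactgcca
Itga4: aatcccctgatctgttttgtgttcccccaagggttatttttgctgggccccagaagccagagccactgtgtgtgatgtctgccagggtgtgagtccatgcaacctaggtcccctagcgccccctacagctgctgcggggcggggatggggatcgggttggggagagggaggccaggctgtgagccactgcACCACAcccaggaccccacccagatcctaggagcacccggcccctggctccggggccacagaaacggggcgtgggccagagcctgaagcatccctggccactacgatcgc
Itgax: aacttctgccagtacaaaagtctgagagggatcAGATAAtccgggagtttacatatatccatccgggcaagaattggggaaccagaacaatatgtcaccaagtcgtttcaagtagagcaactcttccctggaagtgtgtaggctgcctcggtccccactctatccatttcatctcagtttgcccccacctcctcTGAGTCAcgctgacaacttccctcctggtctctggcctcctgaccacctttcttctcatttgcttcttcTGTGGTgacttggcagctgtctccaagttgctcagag
Itga11: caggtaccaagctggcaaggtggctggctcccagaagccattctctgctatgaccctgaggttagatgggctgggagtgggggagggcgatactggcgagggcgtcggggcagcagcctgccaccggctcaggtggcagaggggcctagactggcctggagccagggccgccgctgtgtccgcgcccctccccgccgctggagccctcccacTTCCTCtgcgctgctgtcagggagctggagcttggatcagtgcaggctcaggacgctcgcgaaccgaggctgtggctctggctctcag
Itga2b: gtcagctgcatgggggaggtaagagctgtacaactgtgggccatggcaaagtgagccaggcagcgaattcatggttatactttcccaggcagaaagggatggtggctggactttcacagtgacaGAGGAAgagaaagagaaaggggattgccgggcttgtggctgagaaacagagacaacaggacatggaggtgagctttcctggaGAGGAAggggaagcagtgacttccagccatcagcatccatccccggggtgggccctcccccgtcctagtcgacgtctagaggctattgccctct

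Counted from the start site as base 1, Itgb7 held GAGGAA at base 3 on the other strand, in the first bases transcribed. Itga4 held TGTGGT on the other strand from base -60. Itgax held AGATAA from base -217, TGAGTCA from base -56 and TGTGGT from base 14. Among the SMC-higher chains, Itga11 held GAGGAA on the other strand from base -38, and Itga2b held it from bases -126 and -44. None of these 5 windows held a CArG box. Such short motifs are common: of all 32851 windows, 28.3% held GAGGAA, 16.8% TGTGGT, 11.2% AGATAA, 7.81% TGANTCA and 1.63% a CArG box. Of the 4 leukocyte chain windows, 2 held GAGGAA, 2 TGTGGT, 1 AGATAA, 1 TGANTCA and 0 a CArG box. Of the 14 matrix-binding chain windows, 7 held GAGGAA, 1 TGTGGT, 0 AGATAA, 2 TGANTCA and 1 a CArG box. A match describes the letters only.

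Among the leukocyte beta chains, Itgb7 was the most abundant integrin chain in pericytes by mean FPKM, a unit that is scaled for transcript length. Its values in replicates 1 to 4 were 157, 99.0, 269 and 271 FPKM in pericytes and 4.34, 3.29, 7.74 and 13.3 FPKM in SMCs. The lowest pericyte library was far above the highest SMC library. The means were 199 ± 85.5 (SD, n = 4) and 7.16 ± 4.49 FPKM (SD, n = 4), a 27.8-fold difference (log2 fold change 4.66, standard error 0.48, limma q = 0.000575). Itgb7 lies on chromosome 15 from 102046426 to 102062366 on the minus strand.

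Itgb2, the beta chain shared by the leukocyte integrins LFA-1 and Mac-1, came next in pericytes by mean level, with values that overlapped those of the matrix-binding chain Itgb1 described further on. It had 126, 59.0, 191 and 189 FPKM in the pericyte libraries and 5.23, 5.78, 15.3 and 21.4 FPKM in the SMC libraries. Replicates 1 and 2 were lower than replicates 3 and 4 in both groups, and the lowest pericyte value was above the highest SMC value. Its mean was 11.8-fold higher in pericytes (log2 fold change 3.53, standard error 0.55, limma q = 0.00375).

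Of the alpha chains that pair with Itgb2, Itgal was the most abundant in pericytes, while in SMCs Itgam had more FPKM in each library. Itgal, the alpha chain of LFA-1, had 38.9, 17.6, 66.9 and 77.5 FPKM in pericytes and 1.10, 0.909, 2.59 and 3.99 FPKM in SMCs. Every pericyte library was above every SMC library, and the mean was 23.4-fold higher (log2 fold change 3.94, standard error 0.52, limma q = 0.00185). Within a library, the FPKM of Itgal was 0.298 to 0.411 times that of Itgb2 in pericytes and 0.157 to 0.211 times in SMCs.

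Itgax, Itgam and Itgad, which mark dendritic and myeloid cells, lie side by side on chromosome 7 within the stretch from 135206154 to 135349015, with 1.386 kb between Itgam and Itgax, 3.718 kb between Itgax and Itgad, and no gene between them. Itgal lies on the same chromosome, 727.5 kb from Itgam, with 46 genes between. The values of these neighbours differed. Itgax had 3.10, 2.42, 10.1 and 17.7 FPKM in pericytes and 0.490, 0.550, 1.07 and 1.36 FPKM in SMCs. The groups did not overlap, but pericyte replicates 3 and 4 were several fold above replicates 1 and 2 (log2 fold change 2.00, standard error 0.55, limma q = 0.0397). The call was lost with pericyte replicate 3 or 4 or any of the 4 SMC libraries left out (limma q between 0.0538 and 0.101).

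Itgam, the alpha chain of Mac-1, had 2.71, 3.05, 8.70 and 5.39 FPKM in pericytes and 1.33, 2.01, 2.67 and 4.83 FPKM in SMCs. The groups overlapped, and Itgam did not pass (log2 fold change 0.66, standard error 0.39, limma q = 0.321). Itgad was near the bottom of the range in both groups, at 0.498, 0.113, 0.875 and 0.680 FPKM in pericytes and 0.0896, 0.426, 1.22 and 0.0526 FPKM in SMCs (log2 fold change 0.13, limma q = 0.8). Cox6a2, a muscle subunit of cytochrome c oxidase, overlaps Itgad and had 50.6 to 127 FPKM in pericytes and 2.27 to 3.54 FPKM in SMCs. Whether reads were counted by strand is not given in the sources used here, so the share of each gene in such overlaps is uncertain.

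Itgae and Itga4 are the alpha partners of Itgb7. Itgae, which encodes CD103 and binds E-cadherin, had 9.89, 8.32, 13.4 and 20.4 FPKM in pericytes and 0.269, 0.641, 0.264 and 1.05 FPKM in SMCs. The groups did not overlap, and the mean was 23.4-fold higher in pericytes (log2 fold change 3.12, standard error 0.29, limma q = 0.000356). Gsg2, a kinase gene that overlaps Itgae, had 1.16 to 2.62 FPKM in pericytes and at most 0.501 FPKM in SMCs.

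Itga4 had 12.3, 3.49, 14.6 and 11.8 FPKM in pericytes and 1.37, 2.23, 0.973 and 1.07 FPKM in SMCs. Pericyte replicate 2 was well below the other pericyte libraries but above every SMC library (log2 fold change 2.14, standard error 0.40, limma q = 0.00854). Cerkl, whose gene overlaps Itga4, had 6.03 to 7.65 FPKM in pericytes and 1.74 to 3.52 FPKM in SMCs. Per library, Itgae and Itga4 were low beside their beta chain in pericytes, at 0.0498 to 0.0841 and 0.0353 to 0.0784 times the FPKM of Itgb7.

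The leukocyte chains were read beside markers of the cells that use them. Of 20 markers of T, B and NK cells, 19 were higher in pericytes (95%, beside 10.6% of all genes tested). Their summed level was 2470 to 4554 FPKM in pericytes and 38.5 to 69.2 FPKM in SMCs. The exception was Cd4 (limma q = 0.0747), which passed with replicates 1 and 2 against 3 and 4 as a covariate (limma q = 0.0106). The labels name no such split of the replicates. With this covariate, 3794 of the 27414 genes tested were higher in pericytes and 3929 in SMCs, against 2917 and 3060 without it. The T cell markers Cd3d, Cd3e and Cd3g were detected in all 8 libraries, and Pax5, which defines B cells, was at 1.35 to 2.13 FPKM in pericytes and at most 0.0698 FPKM in SMCs.

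Markers of other leukocytes moved less uniformly. Of 8 macrophage and monocyte markers, Ly6c2 and Ccr2 were higher in pericytes, whereas 3 were SMC-higher (Emr1, Mrc1 and Fcgr1), with sums of 811 to 2153 FPKM in pericytes and 299 to 408 FPKM in SMCs. Ly6c2 held most of the pericyte sum, and without it the other 7 markers summed to 168 to 308 FPKM in pericytes and 257 to 394 FPKM in SMCs. Emr1 and Fcgr1 kept their call in 8 and 12 of 17 other settings, with a limma q of up to 0.108 and 0.0579 with a library left out. Of 6 dendritic cell markers, 3 were higher in pericytes (Flt3, Siglech and Ccr7), with sums of 1309 to 1378 FPKM and 54.1 to 106 FPKM. Ccr7, which naive lymphocytes also use, held most of these sums, and the other 5 summed to 103 to 203 FPKM in pericytes and 15.5 to 31.0 FPKM in SMCs. Of 7 neutrophil markers, 2 were higher in pericytes (Elane and Mpo), with sums of 1158 to 5096 FPKM and 221 to 2685 FPKM. Of 5 mast cell markers, 2 were higher in pericytes (Cpa3 and Tpsb2), with sums of 42.4 to 67.8 FPKM and 3.20 to 18.8 FPKM. Elane, Cpa3 and Tpsb2 kept their call in 11, 6 and 10 of 17 other settings. In these short lists the shares toward pericytes were 25% (macrophage and monocyte), 50% (dendritic cell), 28.6% (neutrophil) and 40% (mast cell). Among all genes tested the share was 10.6%. Toward SMCs, 37.5% of the macrophage and monocyte markers passed, beside 11.2% of all genes tested. The sort was gated to leave out CD45+ cells. The T, B and NK cell markers moved with the leukocyte chains, the other lists did so in part, and their part in the result was not tested.

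**Figure D2:**
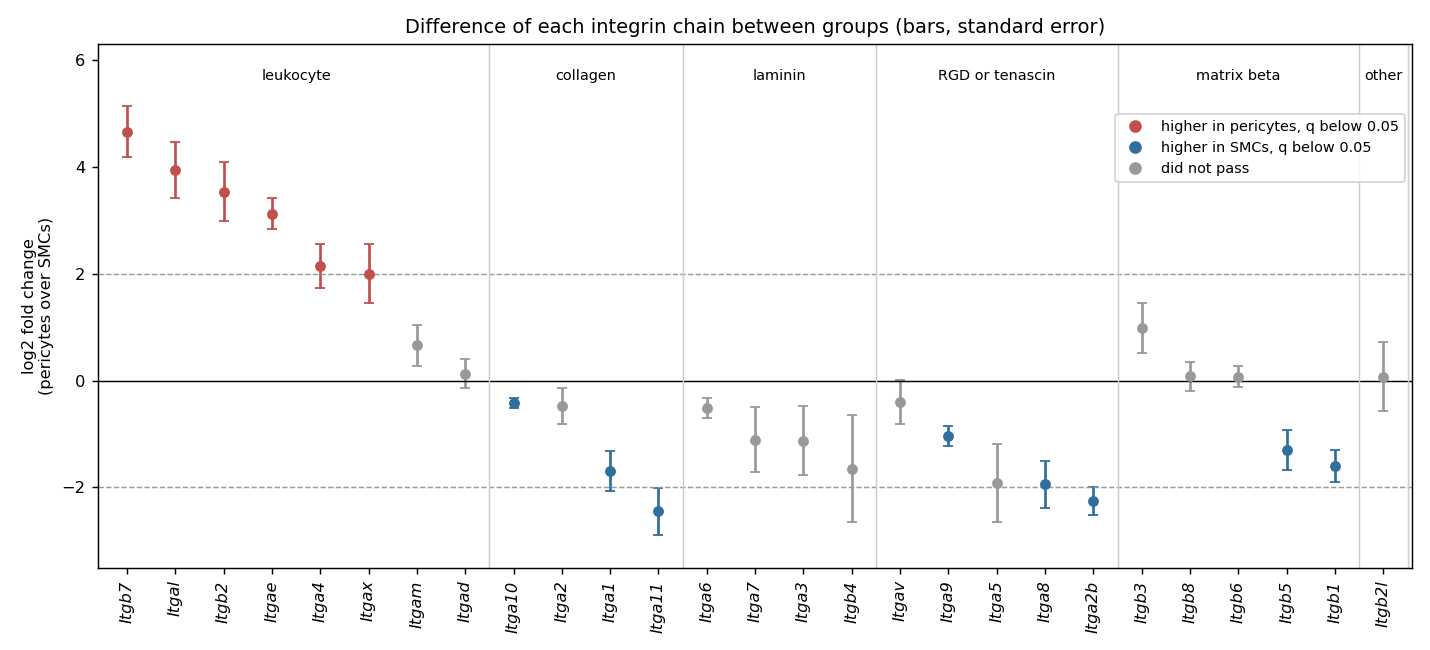
Log2 fold change of each integrin chain, pericytes over SMCs, on the log2(FPKM + 1) scale (points) with its standard error (bars), coloured by the limma call and with dashed lines at the enrichment threshold of 2 log2 units. Of the leukocyte chains, 6 lie at or above the upper line in red, and the 8 blue points among the matrix-binding chains lie between -2.45 and -0.42.

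With a log2 fold change of 2 added to the q value, as for enriched genes, 6 of 8 leukocyte chains were pericyte-enriched (3.24% of all genes tested) and 2 of 18 matrix-binding chains were SMC-enriched (2.66% of all genes tested). Itgax was just inside this threshold at 2.00, and Itga8 was just outside it at -1.94. With the threshold placed within the test (limma treat), 1 leukocyte chain and no matrix-binding chain passed, beside 14 chains that passed at 0 fold. The share of all genes that passed limma treat is not given here, so these counts have no background to be read against.

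Collagen receptor alpha chains were higher in SMCs in 3 of 4 cases (75%, beside 11.2% of all genes tested). Itga11, the receptor chain for fibrillar collagen, had 1.47, 0.108, 1.72 and 1.78 FPKM in pericytes and 7.01, 6.22, 14.7 and 19.2 FPKM in SMCs. All SMC values exceeded all pericyte values, and pericyte replicate 2 was lower than the other pericyte libraries. The SMC mean was 9.29-fold higher (log2 fold change -2.45, standard error 0.44, limma q = 0.00705).

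Itga1, which binds collagen IV of the basement membrane, had 3.70, 2.19, 3.97 and 6.73 FPKM in pericytes and 8.32, 14.3, 14.9 and 26.0 FPKM in SMCs. Pericyte and SMC values were separate (log2 fold change -1.68, standard error 0.37, limma q = 0.0172). Itga1 lies on chromosome 13 on the minus strand, next to the other collagen receptor gene Itga2, with 26.04 kb and no gene between them. Pelo, whose gene overlaps Itga1, had 1.96 to 5.02 FPKM in pericytes and 2.92 to 5.73 FPKM in SMCs, so the share of each gene is uncertain. Itga2 did not pass (limma q = 0.431), at 0.0583 to 1.93 FPKM in pericytes and 1.20 to 3.13 FPKM in SMCs.

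Itga10, a collagen receptor chain of cartilage, passed at very low levels. It had 0.199, 0.208, 0.0551 and 0.0207 FPKM in pericytes and 0.457, 0.553, 0.623 and 0.365 FPKM in SMCs (log2 fold change -0.42, standard error 0.09, limma q = 0.0131). Pericyte values all lay below SMC values, although no library reached 1 FPKM.

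Alpha chains for fibronectin, vitronectin, fibrinogen and tenascin were higher in SMCs in 3 of 5 cases (60%, beside 11.2% of all genes tested). Itga2b, the alpha chain of the fibrinogen receptor of platelets and megakaryocytes, had 2.48, 2.96, 1.86 and 0.852 FPKM in pericytes and 16.7, 13.6, 12.8 and 9.69 FPKM in SMCs. The groups did not overlap, and the SMC mean was 6.47-fold higher (log2 fold change -2.26, standard error 0.26, limma q = 0.00101). Its usual partner Itgb3 had 4.07, 1.73, 8.73 and 10.1 FPKM in pericytes and 1.17, 1.96, 2.34 and 3.58 FPKM in SMCs. Those groups overlapped, and the fold change had the other sign (log2 fold change 0.98, limma q = 0.213). Itgb3 passed toward pericytes without pericyte replicate 2 (limma q = 0.0347) and with replicates 1 and 2 against 3 and 4 as a covariate (limma q = 0.0446).

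Platelet markers were read beside Itga2b. Of 5 platelet markers, Pf4 was higher in SMCs, at 33.7 to 113 FPKM against 3.99 to 31.0 FPKM in pericytes (limma q = 0.0296). The other 4 did not pass, so the share toward SMCs was 20%, beside 11.2% of all genes tested. Pf4 lost its call with all listed genes kept (limma q = 0.0672) and without pericyte replicate 1, 3 or 4 or SMC replicate 1 or 2 (limma q = 0.0639 to 0.0778). Pf4 held most of the summed level, which was 4.17 to 34.4 FPKM in pericytes and 35.3 to 114 FPKM in SMCs. The platelet receptor genes Gp1ba, Gp9 and Gp5 were below 1 FPKM in all 8 libraries, between 0 and 0.677 FPKM.

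Itga8, a receptor chain for nephronectin and fibronectin that smooth muscle is known to use, had 6.10, 2.35, 5.99 and 11.4 FPKM in pericytes and 15.3, 25.9, 22.8 and 41.7 FPKM in SMCs. All SMC values were above the pericyte values (log2 fold change -1.94, standard error 0.44, limma q = 0.0185). Itga9, which binds tenascin-C, had 0.387, 0.437, 0.735 and 0.362 FPKM in pericytes and 1.20, 1.88, 3.02 and 2.31 FPKM in SMCs. These values did not overlap (log2 fold change -1.04, standard error 0.19, limma q = 0.00692). Gm10157, whose gene overlaps Itga9, had 0.412 to 3.47 FPKM in pericytes and 0.390 to 1.67 FPKM in SMCs. E030013I19Rik, whose gene overlaps Itga8, had 0.576 to 2.85 FPKM in pericytes and 2.05 to 7.47 FPKM in SMCs. The share of each gene in these overlaps is uncertain.

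Itga5, the alpha chain of the main fibronectin receptor, did not pass. It had 6.06, 2.25, 11.4 and 16.1 FPKM in pericytes and 12.8, 15.9, 60.9 and 67.8 FPKM in SMCs, and values overlapped through pericyte replicate 4 and SMC replicates 1 and 2. Replicates 3 and 4 were above replicates 1 and 2 in both groups (log2 fold change -1.92, standard error 0.73, limma q = 0.116). With this split of the replicates as a covariate the limma q value was 0.00292, and with genes of at least 1 FPKM in at least 4 libraries it was 0.0348. Itgav, the vitronectin receptor chain, had 6.68, 17.7, 23.8 and 9.99 FPKM in pericytes and 26.2, 21.4, 14.0 and 11.9 FPKM in SMCs. Its groups overlapped (log2 fold change -0.40, limma q = 0.597).

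None of the 4 chains of laminin receptors passed by limma (1 of 4 at an unadjusted p below 0.05), although all 4 had a higher mean in SMCs. Itga7, the laminin receptor chain of skeletal and smooth muscle, had 20.6, 12.2, 13.8 and 40.7 FPKM in pericytes and 21.0, 23.3, 63.2 and 108 FPKM in SMCs (limma q = 0.288). Its groups overlapped only through pericyte replicate 4. Itga6, a laminin receptor chain of endothelial and epithelial cells, had 10.9, 11.5, 10.4 and 9.34 FPKM in pericytes and 12.8, 12.2, 22.2 and 16.3 FPKM in SMCs (limma q = 0.0952). Its groups did not overlap, the gap between them was narrow, and it passed with quantile normalization (limma q = 0.0396).

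Itgb4, the partner of Itga6 in epithelia and Schwann cells, had 1.25, 1.46, 5.14 and 5.53 FPKM in pericytes and 1.83, 3.59, 39.7 and 39.8 FPKM in SMCs. SMC replicates 3 and 4 were far above every other library (log2 fold change -1.65, standard error 1.004, limma q = 0.336). With the split of replicates 1 and 2 against 3 and 4 as a covariate, Itgb4 passed (limma q = 0.033), in a setting that called more of all genes tested, as given above. Itga3 had 0.371 to 4.83 FPKM in pericytes and 1.97 to 13.1 FPKM in SMCs (limma q = 0.305), and it passed with the same covariate (limma q = 0.0139). Of 5 Schwann cell markers, 0 passed by limma (1 at an unadjusted p below 0.05), and their sums were 103 to 657 FPKM in pericytes and 108 to 344 FPKM in SMCs.

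Among the matrix-binding beta chains, Itgb1 was the most abundant integrin chain in SMCs. It had 91.2, 82.3, 178 and 188 FPKM in pericytes and 309, 450.4, 370.3 and 418 FPKM in SMCs. The SMC values all exceeded the pericyte values, and Itgb1 was still above 80 FPKM in every pericyte library. The mean of pericytes was 135 ± 55.6 FPKM (SD, n = 4) and that of SMCs 387 ± 61.4 FPKM (SD, n = 4) (log2 fold change -1.60, standard error 0.31, limma q = 0.00908).

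Itgb5, a partner of Itgav, had 11.1, 5.96, 4.33 and 14.2 FPKM in pericytes and 22.1, 16.3, 18.0 and 32.4 FPKM in SMCs. The lowest SMC value was above the highest pericyte value (log2 fold change -1.30, standard error 0.37, limma q = 0.0458). The call was lost with pericyte replicate 1, 2 or 3 or any of the 4 SMC libraries left out (limma q between 0.0579 and 0.108). Itgb8 and Itgb6, which pair with Itgav to activate latent TGF-β, overlapped between groups and stayed below 3 FPKM and below 1 FPKM in all libraries (limma q = 0.874 and 0.842). Itgb2l was also below 5 FPKM throughout and did not pass (limma q = 0.958).

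The matrix-binding chains were read beside markers of other cells that use matrix receptors. All 8 fibroblast markers were higher in SMCs, and their sums were 310 to 774 FPKM in pericytes and 2166 to 3738 FPKM in SMCs. Of 5 tendon markers, 4 were higher in SMCs, with sums of 196 to 646 FPKM in pericytes and 2456 to 3759 FPKM in SMCs. Of 8 endothelial markers, 6 were higher in SMCs (Kdr and Tie1 did not pass), with sums of 63.0 to 134 FPKM in pericytes and 281 to 1026 FPKM in SMCs. The shares toward SMCs were 100% (fibroblast), 80% (tendon) and 75% (endothelial), beside 11.2% of all genes tested. Every fibroblast and endothelial marker was detected in all 8 libraries. Pecam1, the gene of CD31, was among them at 24.96 to 59.7 FPKM in pericytes and 102 to 301 FPKM in SMCs (limma q = 0.00873). The labels place both sorted groups in the gate negative for the CD31 antibody, whereas a legend of the study's gating scheme writes them as CD31+. No satellite cell or myofibre marker passed (0 of 7 by limma, and 1 of 7 at an unadjusted p below 0.05), at sums of 25.6 to 50.1 FPKM in pericytes and 49.2 to 84.5 FPKM in SMCs. Of these, Tnnt3 (limma q = 0.0762) passed toward SMCs with replicates 1 and 2 against 3 and 4 as a covariate (limma q = 0.0049), and its limma q with a library left out was 0.027 to 0.173. The fibroblast, tendon and endothelial markers moved with the matrix-binding chains, and their part in the result was not tested.

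The make-up of the integrin pool also differed between groups. Itgb7 and Itgb2 together made up 72.1%, 61.8%, 69.2% and 67.6% of the summed FPKM of the 9 beta chains in pericyte replicates 1 to 4. In SMC replicates 1 to 4 they made up 2.74%, 1.86%, 5.04% and 6.53%. Itgb1 made up 23.2% to 32.2% in pericytes and 78.8% to 92.5% in SMCs. The share of Itgb7 was close to constant across pericyte libraries, at 38.7% to 40.5%, while the summed FPKM of beta chains varied from 255 to 680.4 FPKM.

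Among the 18 alpha chains, the 6 leukocyte chains made up 39.9% to 59.2% of the summed FPKM in pericytes and 3.48% to 4.60% in SMCs. Itgal alone made up 20.1% to 34.6% of the alpha chain sum in pericytes. In SMCs no alpha chain held such a share in every library: Itga7 ranged from 15.9% to 33.5%, Itga5 from 9.77% to 24.1%, Itga8 from 9.05% to 17.6% and Itgav from 3.67% to 19.97%. Within each pericyte library the FPKM of Itgb7 was 1.20 to 1.72 times that of Itgb1, and in SMCs it was 0.00729 to 0.0317 times. These shares are of transcript levels, since pairing takes place between proteins.

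**Figure D3:**
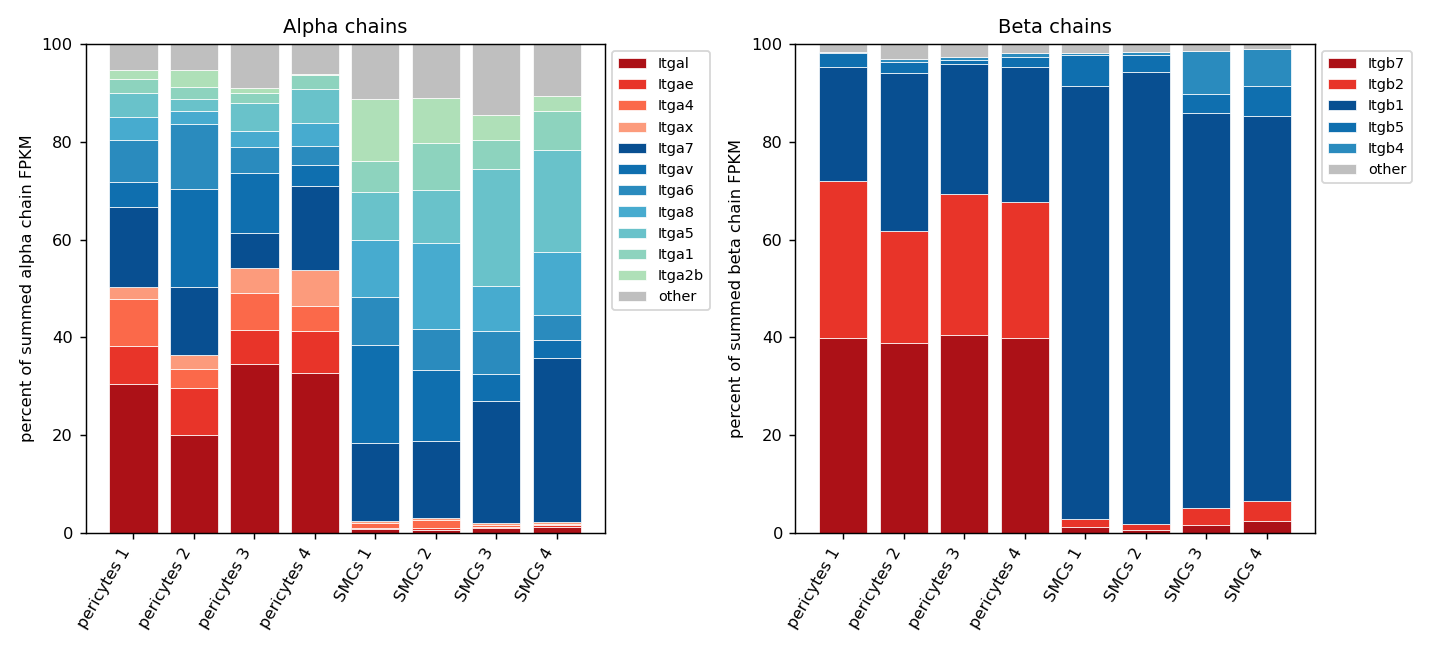
Share of each chain in the summed FPKM of alpha chains (left) and of beta chains (right), in percent, for each of the 8 libraries. The leukocyte chains Itgal, Itgae, Itga4, Itgax, Itgb7 and Itgb2 are in red shades, and the matrix-binding chains named in the key in blue and green shades. Grey holds the remaining chains of both lists, such as Itgam, Itgad, Itga11 and Itga3, and Itgb2l. Red shades for Itgb7 and Itgb2 fill 61.8% to 72.1% of the beta chain bars in pericytes and 1.86% to 6.53% in SMCs.

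Of the members that are not chains, Itgbl1, a secreted protein with integrin-like repeats, was higher in SMCs. It had 33.1, 16.7, 6.60 and 7.44 FPKM in pericytes and 246, 305, 205 and 194 FPKM in SMCs, a 14.9-fold difference between the means. Its lowest SMC value was several fold above its highest pericyte value (log2 fold change -4.06, standard error 0.48, limma q = 0.00111). Itgb1bp1, which encodes ICAP-1, a binder of the Itgb1 tail, had 41.7 to 79.2 FPKM in pericytes and 45.9 to 61.3 FPKM in SMCs and did not pass (limma q = 0.802). Itgb3bp, a centromere protein gene, was at 5.95 to 19.6 FPKM in pericytes and 5.29 to 8.58 FPKM in SMCs (limma q = 0.311), and Itgb1bp2 and Itgb1bp3 were below 1 FPKM in all 8 libraries.

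The ligands of these receptors were listed next. Of 11 ligands of leukocyte integrins, 4 were higher in SMCs (Jam2, Vcam1, F11r and Jam3) and Thy1 was higher in pericytes, with a median log2 fold change of -0.98. The share toward SMCs was 36.4%, beside 11.2% of all genes, and that toward pericytes, 9.09%, was near the 10.6% of all genes. Vcam1, the counter-receptor of Itga4 with Itgb1, had 10.6 to 48.4 FPKM in pericytes and 165 to 270.3 FPKM in SMCs (log2 fold change -2.83, limma q = 0.00362). Jam2, a junction protein that binds the same integrin, had 6.39 to 14.0 FPKM in pericytes and 70.6 to 172 FPKM in SMCs (log2 fold change -3.28, limma q = 0.000422). The junction proteins F11r and Jam3 had log2 fold changes of -2.71 and -1.62 (limma q = 0.000355 and 0.000435). Thy1, a surface glycoprotein of T cells and fibroblasts that can bind integrins, had 13.5 to 46.9 FPKM in pericytes and 2.56 to 6.01 FPKM in SMCs (log2 fold change 2.12, limma q = 0.012). Icam1, the best known ligand of LFA-1, was at 59.4 to 183 FPKM in pericytes and 104 to 411 FPKM in SMCs and did not pass (limma q = 0.442), except toward SMCs with replicates 1 and 2 against 3 and 4 as a covariate (limma q = 0.0233).

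The E-cadherin gene Cdh1, whose product binds Itgae with Itgb7, did not pass either (limma q = 0.827), at 1.07 to 13.6 FPKM in pericytes and 0.641 to 34.1 FPKM in SMCs. Madcam1, the mucosal ligand of Itga4 with Itgb7, had 0.106 to 2.62 FPKM in pericytes and 1.29 to 12.6 FPKM in SMCs (limma q = 0.295). Icam1, Cdh1 and Madcam1 were named after their values were seen.

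Of 34 matrix ligands (collagens, laminins, fibronectin and matricellular proteins), 25 were higher in SMCs and 0 in pericytes by limma (31 and 0 at an unadjusted p below 0.05), and all 34 had a higher mean log2 level in SMCs. Those 25 were 73.5% of the list, beside 11.2% of all genes higher in SMCs and 10.6% higher in pericytes. Their median log2 fold change was -2.28. The largest fold changes were those of Postn, a matricellular ligand of Itgav integrins, at 4.33 to 28.1 FPKM in pericytes and 73.9 to 343 FPKM in SMCs (log2 fold change -3.57, limma q = 0.0108), and of the fibrillar collagen genes Col3a1 and Col1a1 (log2 fold changes -3.51 and -3.48, limma q = 0.000622 and 0.00502). Ctgf, a matricellular protein bound by several integrins, had a log2 fold change of -3.29 (limma q = 0.00276). Col3a1 and Col1a1 are ligands for the collagen receptor chains Itga11 and Itga1, which were also higher in SMCs, and are also products of fibroblasts, whose markers moved in the same direction as given above.

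Integrins are switched to their active form from inside the cell by talins and kindlins, recruited through Rap1 and its effectors. Of 23 such activators and regulators, 9 passed toward pericytes and 3 toward SMCs, with a median log2 fold change of 0.74. The share toward pericytes was 39.1%, beside 10.6% of all genes, and that toward SMCs, 13.04%, was near the 11.2% of all genes. Skap1, an adaptor of T cells that links the T cell receptor to LFA-1, had 238 to 396 FPKM in pericytes and 2.65 to 5.21 FPKM in SMCs (log2 fold change 5.93, limma q = 8.52e-06). Cytip, a regulator of cytohesin in leukocytes, had 463 to 487 FPKM in pericytes and 19.1 to 36.4 FPKM in SMCs (log2 fold change 4.13, limma q = 2.22e-05). Rasgrp1, an exchange factor of lymphocytes, had a log2 fold change of 3.65 (limma q = 0.000435). In the other direction, Dab2, an endocytic adaptor for integrins, and Raph1 (lamellipodin) had log2 fold changes of -2.50 and -1.44 (limma q = 0.00969 and 0.000296).

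The kindlins, which bind beta chain tails, differed by member. Fermt3, the kindlin of blood cells, had 57.9 to 95.9 FPKM in pericytes and 2.87 to 8.68 FPKM in SMCs (log2 fold change 3.73, limma q = 0.000258). Fermt2, the kindlin of mesenchymal cells, had 16.5 to 30.3 FPKM in pericytes and 90.6 to 113 FPKM in SMCs (log2 fold change -2.06, limma q = 0.000309). Neither gene overlapped between groups. Within each library, Fermt3 was 2.53 to 5.82 times Fermt2 in pericytes and 0.0273 to 0.0765 times Fermt2 in SMCs. The talin genes Tln1 and Tln2 did not pass (limma q = 0.571 and 0.236).

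Focal adhesion proteins link integrin tails to actin. Of 26 genes, 3 passed toward pericytes, 9 toward SMCs and 14 in neither direction, with a median log2 fold change of -0.68. The share toward pericytes, 11.5%, was near the 10.6% of all genes, and that toward SMCs was 34.6%, beside 11.2% of all genes. The 3 genes higher in pericytes were Ptk2b, Parvg and Lpxn, which encode the kinase PYK2, γ-parvin and leupaxin and are known from blood cells. Their log2 fold changes were 3.89, 3.67 and 3.67 (limma q = 0.000664, 0.00025 and 5.78e-05). The largest fold changes toward SMCs were those of Lims2 (PINCH-2), Parva (α-parvin), Tenc1 (tensin-2) and Bcar1 (p130Cas), at -2.27, -2.23, -2.05 and -1.80 (limma q = 0.0231, 0.0102, 0.0307 and 0.05, the last just under the threshold). Lims2, Tenc1 and Bcar1 kept their call in 12, 11 and 10 of 17 other settings.

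Related pairs of these proteins were read as ratios within each library, and the pairs were chosen after their values were seen. Parvg was 3.33 to 7.71 times Parva in pericytes and 0.0304 to 0.0737 times Parva in SMCs. Ptk2b was 8.45 to 11.5 times Ptk2, which encodes focal adhesion kinase, in pericytes and 0.0749 to 0.25 times Ptk2 in SMCs. Ptk2 itself had 3.61 to 7.33 FPKM in pericytes and 13.3 to 19.3 FPKM in SMCs (log2 fold change -1.41, limma q = 0.00312).

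**Figure D4:**
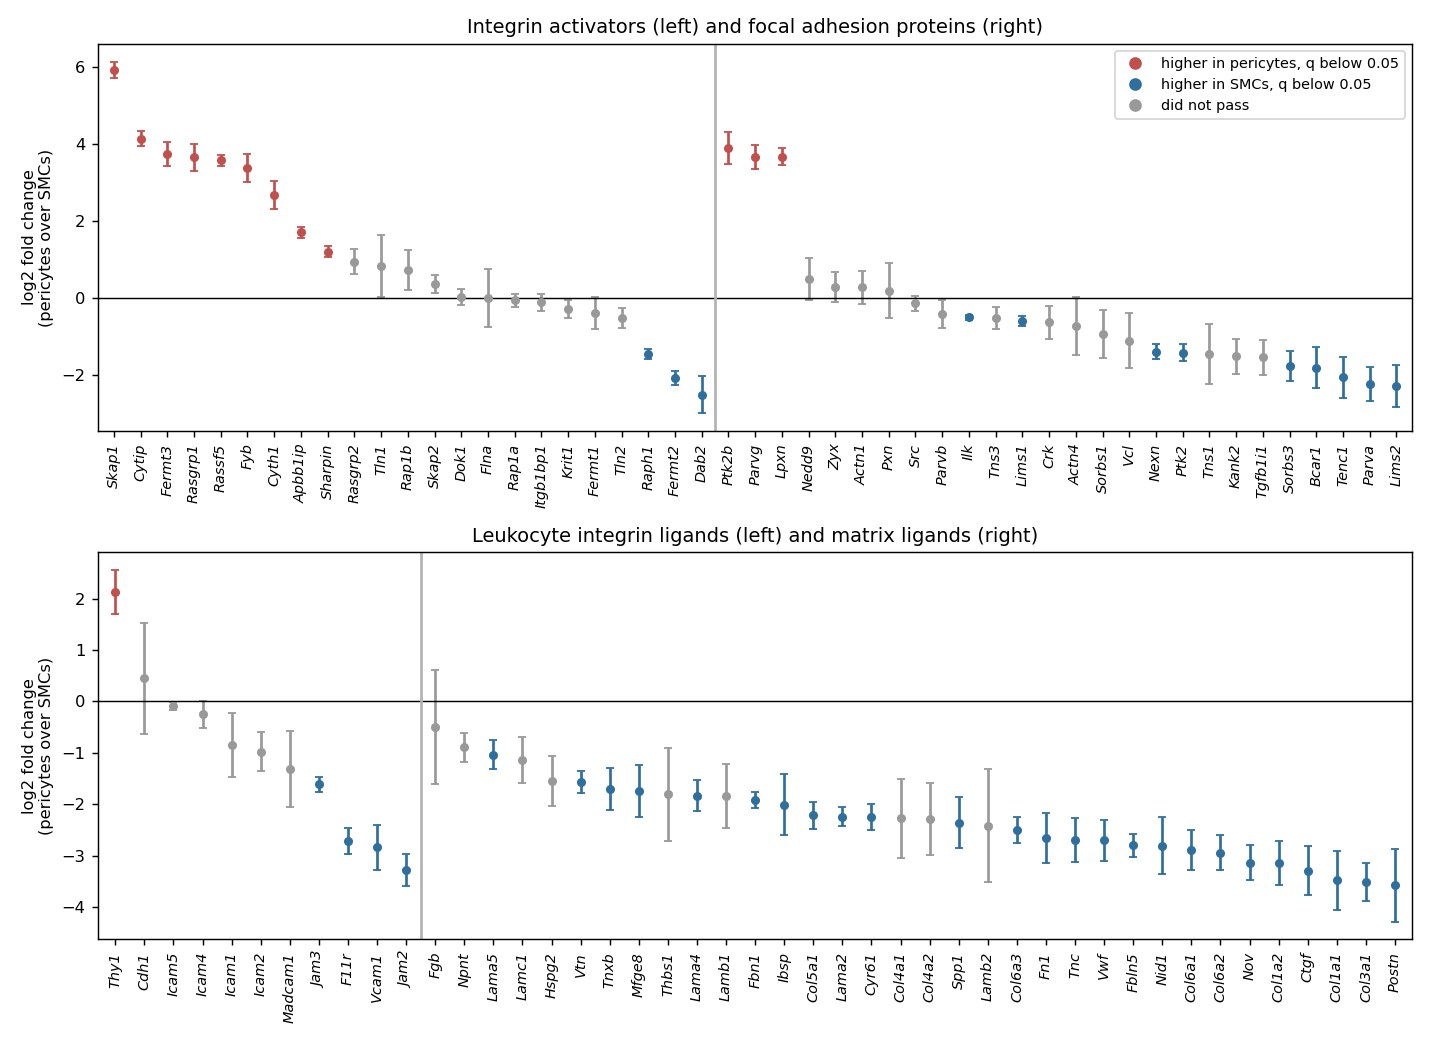
Log2 fold change, pericytes over SMCs, on the log2(FPKM + 1) scale (points) with its standard error (bars), coloured by the limma call. The top panel holds 23 integrin activators and regulators and 26 focal adhesion genes. The bottom panel holds 11 leukocyte integrin ligands and 34 matrix ligands. In the top panel 12 red points lie above 0 and 12 blue points below, and in the bottom panel all 34 matrix ligands lie below 0.

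The replicates fell into 1 and 2 against 3 and 4 for several chains, so differences were also taken within each part, as values with no test. With replicates 1 and 2 alone, the median log2 difference was 2.14 over the leukocyte chains and -1.08 over the matrix-binding chains, and with replicates 3 and 4 alone it was 3.06 and -1.18. All 8 leukocyte chains had a higher mean log2 level in pericytes in both parts. Of the 18 matrix-binding chains, 3 were higher in pericytes within replicates 1 and 2 and 5 within replicates 3 and 4.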

How the data were processed

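RNAseq libraries of pericytes (n = 4) and SMCs (n = 4) were grouped by the cell type in the labels. The authors checked reads with FastQC and aligned them to NCBI Build 37 of the mouse genome, using Bowtie2, TopHat and an Ensembl annotation. They deposited FPKM for 37979 genes, neither log transformed nor filtered. The program that computed FPKM and its strand setting are not given in the sources used here. FPKM are not counts, so no counting error is given, and depth is known only relative to the other libraries.

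Tests were run on log2(FPKM + 1) with lmFit and eBayes of limma 3.58.1 (R 4.3.3) over the 27414 genes above 0 in at least 1 library, with Benjamini-Hochberg adjustment, and were checked on simulated data. Genes with q below 0.05 were called, and those also past a log2 fold change of 2 were called enriched. Python 3.11.15, pandas 2.3.3, numpy 2.4.6 and matplotlib 3.10.9 were used for tables and figures. Gene positions came from GENCODE for the same build, which held all 32 genes, and motifs were searched in RefSeq promoter windows.

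The genes, lists and tests were chosen with earlier results of these data known. Every library's value is given for the 8 leukocyte chains and for chains that passed or had a mean of at least 10 FPKM in either group. From each ligand and adaptor list, up to 4 genes per direction with the largest fold change among those that passed were named. Settings tried instead were all listed genes, only genes reaching 1 FPKM in 4 or more libraries, a pseudocount of 0.1, TPM, quantile or median-ratio scaling, a replicate block, a covariate for replicates 1 and 2 against 3 and 4, limma's intensity trend, limma treat and leaving out each library. The values within replicates 1 and 2 and within 3 and 4 were added after seeing the data. Staining and flow cytometry were not analysed here, and some genes are not reported here.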

Additional observations from a re-analysis of the deposited data

Results flagged for a closer look

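In 3 of the 64 groups of 4 libraries looked at (32 genes in 2 groups), the log2 value of a library stood apart from the other 3, by a gap to its nearest neighbour that took up most of the range of the group (above Dixon's 95% critical value). Chance alone sets apart about 1 group in 20. In all 3 the library was pericyte replicate 2. Itga4 was low there, at 3.49 FPKM against 11.8 to 14.6 FPKM in the other pericyte libraries (gap over range 0.841). Itga11 was also low, at 0.108 FPKM against 1.47 to 1.78 FPKM (0.873). Itgb1bp1 was high, at 79.2 FPKM against 41.7 to 43.0 FPKM (0.956). The relative depth of this library, at 0.866, was the lowest of the 8, and its part in these values was not tested.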

How the results depend on the processing

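Of the 14 chains called, 12 kept their call and direction in every other setting that tested them, limma treat apart. Itgax and Itgb5 lost theirs with libraries left out, as given above, and with all listed genes (q = 0.0863 and 0.096). Itgax also lost it as TPM (q = 0.0656) and Itgb5 with the split of replicates as a covariate (q = 0.0527), and the cause was not tested. None of the 21 chains followed over the settings changed direction, and Itgb3, Itga3, Itga5, Itga6 and Itgb4 passed in some settings as given above. Limma treat called 1 leukocyte chain and 0 matrix-binding chains, with no share of all genes to set beside these counts. A pseudocount of 0.1 moved the median log2 fold change of the leukocyte chains from 2.63 to 3.22. Without Itgb1 in the sum, Itgb7 and Itgb2 held 93.3% of beta chain FPKM in pericytes and 26.5% in SMCs, against 67.7% and 4.04%. With a library left out, 5 to 6 leukocyte chains were higher in pericytes and 7 to 8 matrix-binding chains in SMCs.

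Same-numbered libraries correlated in their deviations at 0.0794 to 0.474 across 13612 genes, and 2 pericyte and 3 SMC libraries of 4 correlated best with their own number, a hint from the data and not the design. With the replicate block, 6 chains were higher in pericytes and 9 in SMCs (Itga5 added, q = 0.0154). Toward SMCs, 31 matrix ligands passed against 25, and 16 activators, regulators and focal adhesion genes against 12. Of the 10 pericyte markers, 7 were higher in SMCs with the block, Pdgfrb among them (q = 0.00601, against 0.0973 without it), and 0 in pericytes. The block also called 20 of 20 T, B and NK cell markers (Cd4 added), and, toward SMCs, 8 of 8 endothelial markers (Kdr and Tie1 added), 1 of 8 smooth muscle markers (Smtn), 1 of 7 satellite cell and myofibre markers (Tnnt3) and Tln2 (q = 0.0284). Toward pericytes, it called 4 of 5 mast cell, 4 of 6 dendritic cell and 3 of 7 neutrophil markers, against 2, 3 and 2 without it. Among all genes tested, the block called 2978 toward pericytes and 3175 toward SMCs, against 2917 and 3060 without it. The number of reads behind values below 1 FPKM is unknown.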
